A study of Mus musculus with 5 samples.

Results

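Alveolar fibroblasts of the mouse lung were taken from 5 droplet libraries as barcodes that carried the genes of this cell type and none of its neighbours. Of 29500 barcodes with at least 700 genes and 0.1 to 15% mitochondrial counts, 414 met the rule, which asked for at least 2 of the 4 markers *Tcf21*, *Npnt*, *Ces1d* and *Pdgfra* and for *Col1a2*. It further allowed no count of the endothelial, epithelial and immune genes *Cdh5*, *Pecam1*, *Epcam* and *Ptprc*, at most 1 of the adventitial genes *Pi16*, *Dpt* and *Ccl11*, and at most 1 of the mural genes *Cox4i2*, *Higd1b*, *Myh11* and *Des*. The study deleted β1 integrin (*Itgb1*), a receptor by which cells bind matrix, from the type 2 (AT2) epithelial cells of adult mice and followed lung repair after LPS, a bacterial product that inflames the lung. A count is 1 unique molecular identifier (UMI), the tag of 1 captured RNA molecule, and a level is given as CPM, the UMIs of a gene scaled to 1000000 UMIs summed over the fibroblasts of a library.

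Alveolar fibroblasts lie in the walls between the air sacs, next to AT2 cells and capillaries. They are known for making elastin and interstitial collagens and for sending growth factors such as FGF and WNT ligands to AT2 cells. TCF21 is a transcription factor of this lineage, nephronectin (*Npnt*) is a matrix ligand of integrin α8β1, *Ces1d* encodes a carboxylesterase, and PDGFRα is the receptor for the PDGF-A made by epithelium. *Inmt* encodes a methyltransferase that is widely used as a marker of the same cells and had no part in the rule.

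The libraries, in the order used for values below, were β1 fl/fl 7 days after LPS, β1 AT2-KO 7 days after LPS, β1 AT2-KO given PBS and so not injured, β1 fl/fl 21 days after LPS, and β1 AT2-KO 21 days after LPS. The β1 AT2-KO mice (labelled Itgb1 iKO) carried SP-C rtTA, TetO-Cre and floxed *Itgb1*, so doxycycline drove deletion in AT2 cells and not in fibroblasts. The β1 fl/fl mice (Itgb1 fl/fl) were littermates that kept β1. All were adults that had doxycycline followed by time off it before 1 dose into the trachea. Cells without CD45 and Ter119 were sorted from digested lungs, the day 21 suspensions were enriched for epithelial cells, and several mice were pooled in each library with a hashtag antibody each. No library of uninjured β1 fl/fl mice was analysed here.

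There were 78, 153, 18, 98 and 67 alveolar fibroblasts among 8330, 7240, 8671, 2224 and 3035 barcodes. They summed to 277587, 425345, 45313, 243471 and 180946 UMIs, with medians of 3253, 2211, 2516, 2305.5 and 2369 UMIs per cell against 2428, 2491, 2231, 2219 and 1992.5 in the endothelial cells of the same libraries. The uninjured library had 18 members, so its levels have the widest intervals. Libraries shared between 15 and 102 of the barcodes pairwise, and 0 of the fibroblast barcodes.

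The label was checked on *Inmt*, whose level was 848, 1049, 2512, 3179 and 1884 CPM in the alveolar fibroblasts. In the adventitial fibroblasts of the same libraries, taken by *Pi16*, *Dpt* and *Ccl11*, *Inmt* stood at 470, 571, 709, 1191 and 1320 CPM, and in endothelial cells between 5.52 and 21.7 CPM. *Col13a1*, a transmembrane collagen of this fibroblast type, was at 402, 411, 489, 710 and 542 CPM against 45.0 to 84.9 CPM in adventitial fibroblasts. Both genes were higher in the alveolar fibroblasts in 5 of 5 libraries, as the label says, and since the cells were picked by genes that go with them this is a description.

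The rule's own genes give no test. *Npnt* was at 1870, 2894, 1601, 3636 and 3478 CPM, *Pdgfra* at 1124, 1173, 1134, 2121 and 2180 CPM. *Tcf21* was at 732, 865, 912, 1436 and 732 CPM and *Ces1d* at 410, 609, 956, 859 and 705 CPM. All 4 markers were found together in 28.2%, 35.9%, 27.8%, 48.0% and 46.3% of the members, and *Npnt* was the marker found most often in 4 of the 5 libraries. Members with exactly 2 markers numbered 26, 40, 4, 15 and 18, and those with 3 or 4 numbered 52, 113, 14, 83 and 49. Just outside, 27, 30, 7, 17 and 14 barcodes met everything else but held 1 marker. *Inmt* was at 118, 98.4, 145, 596 and 822 CPM in those outside, at 200, 316, 1014, 2614 and 1102 CPM in members with exactly 2 markers, and at 1311, 1273, 2933, 3256 and 2150 CPM in members with 3 or 4. In each library the members at the edge therefore sat between the other groups in *Inmt*. By CPM they lay nearer to the barcodes outside in every library except that of day 21 β1 fl/fl mice.

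Few members held many counts of another cell type's markers. The markers and limits were chosen after the data were seen. At least 20 UMIs of AT2 genes were held by 1, 0, 0, 0 and 2 members. At least 5 UMIs of mesothelial genes were held by 3, 4, 0, 0 and 0, and at least 5 of pericyte genes by 1, 2, 0, 1 and 1. The fits were repeated without these 15 members, and the calls of list genes that this changed are given with the comparison of days and of genotypes. Surfactant RNA was spread more widely, since *Sftpc*, the AT2 surfactant gene, was at 3121, 2803, 178, 2453 and 19367 CPM in the fibroblasts and at 2946, 4166, 737, 2964 and 15566 CPM in endothelial cells, neither of which makes it. The 14 epithelial markers summed to 5742, 4548, 356, 3374 and 25528 CPM over all members. Without the 15 members they still summed to 2621, 4694, 356, 3364 and 14613 CPM.

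The share of alveolar fibroblasts was smallest in the uninjured library and highest in the day 21 library of β1 fl/fl mice. They were 0.936% (exact binomial 95% interval 0.741 to 1.17), 2.11% (1.79 to 2.47), 0.208% (0.123 to 0.328), 4.41% (3.59 to 5.34) and 2.21% (1.71 to 2.80) of all barcodes. Of *Col1a2*-positive stromal barcodes they were 17.9% (14.4 to 21.8), 24.9% (21.5 to 28.5), 12.9% (7.80 to 19.6), 22.0% (18.2 to 26.1) and 28.0% (22.4 to 34.2). Such intervals, for counts and CPM alike, cover counting error only. Endothelial cells made up 78.1%, 65.9%, 92.0%, 53.3% and 28.9% of barcodes, so the share of any stromal cell moved with them and with the epithelial enrichment at day 21. With every barcode thinned to 1500 UMIs, shallower ones left out (6616, 5961, 6663, 1800 and 2703 remained) and the rule applied again, the shares of all barcodes were 1.06%, 2.57%, 0.225%, 4.89% and 2.52%.

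**Figure D1:**
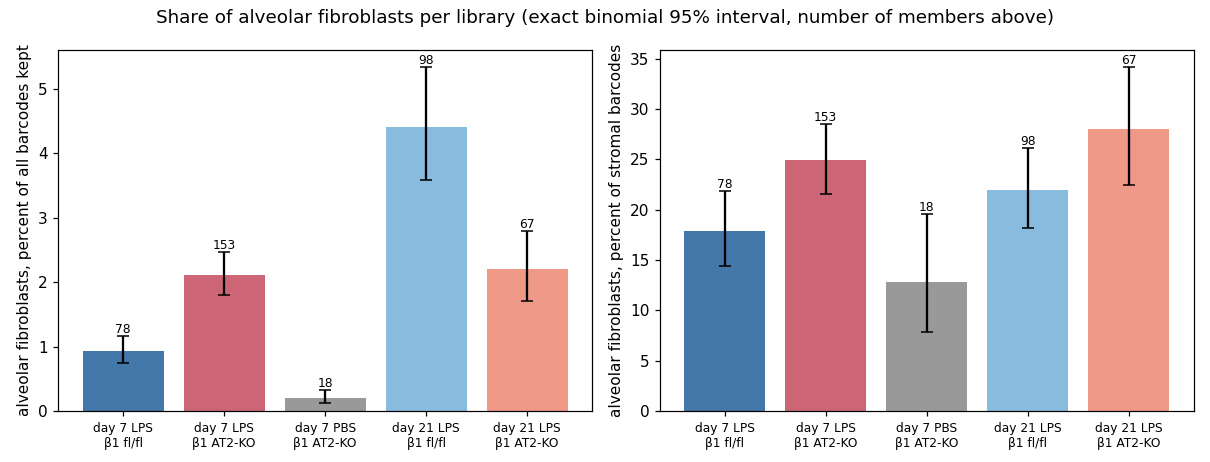
Share of alveolar fibroblasts in each of the 5 libraries, as a percent of all barcodes that passed the filter (left) and of stromal barcodes (right). Bars are the library shares, lines the exact binomial 95% intervals, and the number above each bar is the count of members, from 18 in the uninjured library to 153 in the β1 AT2-KO library 7 days after LPS.

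Compared mouse by mouse, no difference in share could pass 0.05, since 3 mice against 3 allow no exact two-sided permutation p under 0.1. At day 7 the share of all tagged barcodes was 1.11% ± 0.817 (SD, n = 3) in β1 AT2-KO and 0.474% ± 0.367 in β1 fl/fl mice (exact permutation p = 0.2). At day 21 it was 1.27% ± 0.331 in β1 AT2-KO and 2.25% ± 1.02 in β1 fl/fl mice (exact permutation p = 0.2). Over stromal barcodes the day 21 order turned, with 31.0% ± 7.94 in β1 AT2-KO and 21.4% ± 4.05 in β1 fl/fl mice (exact permutation p = 0.2). Against the uninjured mice, with 0.0243% ± 0.0420, the LPS-treated β1 AT2-KO mice had the higher share in 3 of 3 (exact permutation p = 0.1, the smallest possible). A mouse was assigned to 11.1% of the uninjured fibroblasts and 44.4% of those after LPS, which lowers the uninjured shares more. Over stromal barcodes the mice overlapped, with 16.2% ± 4.88 after LPS and 4.44% ± 7.70 in uninjured mice (exact permutation p = 0.2). The ratio of alveolar to adventitial fibroblasts was 0.569, 0.683, 0.545, 0.831 and 1.08, and that to pericytes 1.10, 1.44, 0.327, 0.632 and 0.670. Fewer alveolar fibroblasts and less recovery of them by digestion and sorting cannot be told apart.

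Mice were told apart by hashtag, and hashtags were weak on these cells. A mouse was assigned to 44.9%, 44.4%, 11.1%, 30.6% and 44.8% of the fibroblasts, against 74.7 to 92.6% of the endothelial cells, with a median of 102, 171, 128, 111.5 and 50 tag counts per fibroblast. Tagged members per mouse were 6, 7 and 22 in β1 fl/fl and 7, 22 and 39 in β1 AT2-KO mice at day 7, and 14, 8 and 8 in β1 fl/fl and 6, 14 and 10 in β1 AT2-KO mice at day 21. The uninjured mice had 2, 0 and 0, so the comparison with PBS has no fit over mice. *Xist* and Y-linked genes showed that all 3 day 7 β1 fl/fl mice were female and all 3 day 7 β1 AT2-KO mice male, so genotype and sex cannot be told apart there. The uninjured members gave 15 *Xist* UMIs and 3 Y-linked UMIs whereas the LPS-treated β1 AT2-KO members gave 0 and 75, so sex also differs between LPS and PBS. At day 21 the β1 fl/fl members gave 177 *Xist* and 5 Y-linked UMIs and the β1 AT2-KO members 51 and 26. Sex is therefore not balanced between genotypes at day 21 either. On both days the mice of a genotype shared 1 library, so genotype and library cannot be told apart. Endothelial cells under 1 hashtag of the day 21 β1 fl/fl library held both *Xist* (66.7 CPM) and Y-linked RNA (112 CPM), so that hashtag may not be 1 mouse, and it is counted as 1 below. Without it the comparison of days called 84 genes. Tests across genes below are edgeR quasi-likelihood fits of UMIs summed per mouse, with Benjamini-Hochberg adjusted p, and each is given beside the library levels, which use every member.

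Within a library the fibroblasts varied in matrix genes and in immediate early genes, the latter being held by few members. At 1500 UMIs per cell (63, 123, 16, 77 and 59 members deep enough) the 34 fibrillar matrix genes gave a median of 88, 91, 55, 52 and 55 UMIs per member, from lowest members of 12, 29, 18, 12 and 2 to highest of 236, 375, 88, 122 and 279. The 32 immediate early genes, the transcription factors and feedback genes that cells switch on within minutes of a stimulus, gave medians of 7, 7, 6.5, 6 and 6 UMIs. Their highest members held 115, 111, 219, 19 and 47 UMIs. Members with 20 or more of these UMIs numbered 13, 19, 3, 0 and 4 and held 74.4%, 59.2%, 85.8%, 0% and 30.3% of all immediate early UMIs. In the uninjured library 1 member gave 92 of the 152 *Fos* UMIs, so its immediate early levels are those of a few cells. *Eln*, the elastin gene, had a median of 8, 9, 1, 2 and 2 UMIs per member and 0 UMIs in 3, 8, 2, 19 and 15 members.

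The comparison with the most genes called was between day 7 and day 21 after LPS. It was added after the data were seen and compares 6 mice of day 7 with 6 of day 21, with genotype as a term. Day, epithelial enrichment and library cannot be told apart in it. At an adjusted p of 0.05, 69 of 541 genes (12.8%) were higher at day 7 and 77 (14.2%) lower. There were 220 genes with an unadjusted p under 0.05, and DESeq2 called 147. By library levels 48 of 4227 genes (1.14%) were 2-fold or more higher and 15 (0.355%) lower with counting intervals apart. In endothelial cells of the same mice the day difference was smaller or opposite for many of these genes, and 99 of 8441 genes (1.17%) rose more, or fell less, in fibroblasts than in endothelial cells while 8 (0.0948%) did the reverse. Tagged and untagged members were not alike, which bears on the size of these differences. Among untagged members, which the fit did not use and whose mice are not known, 61 of the 69 higher and 72 of the 77 lower genes had the same sign, with a median log2 difference of 0.53 and -0.37 against 1.21 and -0.92 in tagged members.

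Elastin and collagen I genes were higher at day 7. *Eln* (chr5:134702593-134747323, minus strand, GRCm38) was at 7997 CPM (exact Poisson 95% interval 7666 to 8337), 7747 CPM (7483 to 8019), 1712 CPM (1351 to 2140), 2063 CPM (1885 to 2252) and 2158 CPM (1948 to 2384). Both day 7 LPS libraries stood above the uninjured and both day 21 libraries, and these intervals do not overlap. By mouse *Eln* was at 6060, 6869 and 9350 CPM in β1 fl/fl and 4569, 5597 and 10198 CPM in β1 AT2-KO mice at day 7, and at 2086, 2659 and 1603 CPM and 2723, 3408 and 1129 CPM at day 21, with no overlap of the days. The fitted difference was 1.46 ± 0.29 (log2, SE; edgeR adjusted p = 0.0027, n = 6 mice a day), it passed in 18 of 18 alternative settings, and it was 1.96 in the untagged members. *Eln* was at 39.6 to 105 CPM in endothelial cells, and the difference beyond theirs was 1.17 ± 0.33 (edgeR adjusted p = 0.031), which passed in 8 of 15 settings. In adventitial fibroblasts *Eln* was at 2498, 2016, 939, 819 and 874 CPM.

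*Col1a1* (chr11:94936224-94953042, plus strand), which encodes a chain of collagen I, was at 6452, 6390, 2512, 2138 and 2382 CPM. By mouse it ranged from 2008 to 10383 CPM at day 7 and from 1788 to 2882 CPM at day 21, so 1 day 7 mouse lay among the day 21 mice. The fitted difference was 1.12 ± 0.33 (edgeR adjusted p = 0.024), it passed in 11 of 18 settings, and it was 1.34 in untagged members. *Col5a2*, a collagen V chain, was at 1392, 1498, 578, 731 and 749 CPM and rose by 1.01 ± 0.33 (edgeR adjusted p = 0.032). *Bgn*, which encodes the proteoglycan biglycan, was at 6412, 6390, 3935, 3482 and 3494 CPM and rose by 0.65 ± 0.22 (edgeR adjusted p = 0.041). *Mfap5*, a microfibril gene, rose by 0.97 ± 0.30 (edgeR adjusted p = 0.028) and the proteoglycan gene *Ogn* and the protease inhibitor gene *Timp3* fell by 0.99 and 0.80 (edgeR adjusted p = 0.016 and 0.023). *Dcn*, the decorin gene, at 8752 to 12861 CPM in adventitial fibroblasts, was at 823, 963, 645, 266 and 162 CPM in 27, 44, 5, 13 and 11 members, and rose by 3.48 ± 0.69 (edgeR adjusted p = 0.0027) in the tagged members but differed by 0.40 in the untagged. Of the 27 fibrillar matrix genes that passed the filter on low counts, 6 rose, 2 fell and 19 did not pass. Of 34 tested for a difference beyond the endothelial one, 2 passed as higher, *Dcn* and *Eln*, and 0 as lower. Over the library levels 30 of 33 genes of this list were higher at day 7, with a median log2 ratio of 0.68 against 0.36 in endothelial cells and -0.01 over all genes.

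**Figure D2:**
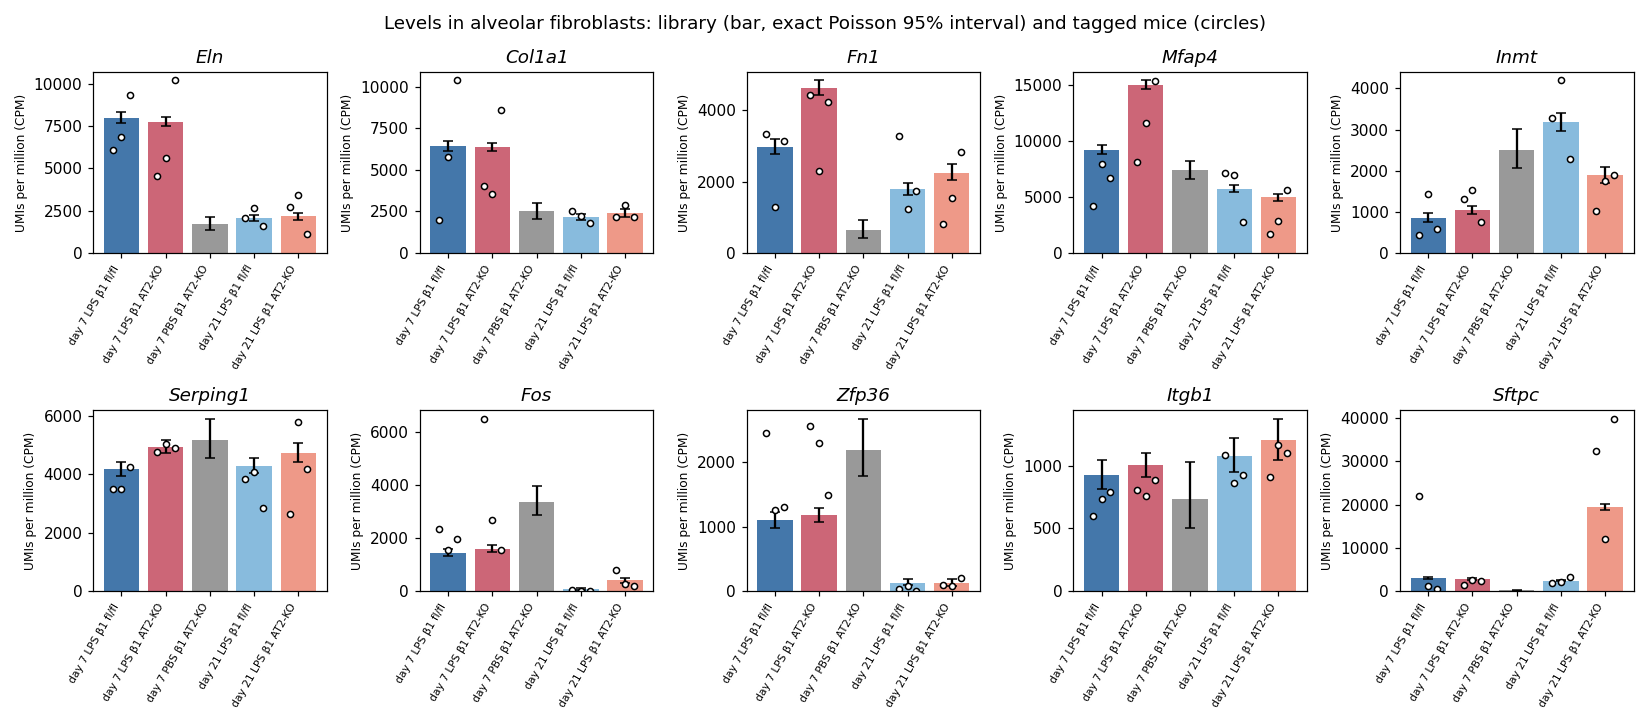
Levels of 10 genes in the alveolar fibroblasts of the 5 libraries, in CPM on linear axes. Bars are library levels with exact Poisson 95% intervals and circles are mice with at least 5 tagged members (none in the uninjured library); *Eln* is at 7997 and 7747 CPM in the day 7 LPS libraries and between 1712 and 2158 CPM in the other 3, whereas *Serping1* is between 4161 and 5180 CPM in all 5.

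Other matrix genes were high at day 7 in the library levels but did not pass the test over mice. *Fn1*, the fibronectin gene, was at 2983, 4631, 645, 1793 and 2253 CPM (day difference 0.51 ± 0.34, edgeR adjusted p = 0.28). *Col3a1*, a collagen III gene, was at 8178, 9282, 3579, 4105 and 4758 CPM (0.47 ± 0.24, edgeR adjusted p = 0.17). *Tnc*, the gene of the injury matrix protein tenascin C, was at 413, 645, 156, 274 and 302 CPM. Markers of fibrotic fibroblasts were scarce. *Cthrc1* gave 3.62, 2.39, 0, 0 and 0 CPM, and *Acta2*, the smooth muscle actin gene of myofibroblasts, 254, 287, 133, 78.9 and 72.7 CPM. Of the 4 fibrotic fibroblast genes that passed the filter, 0 passed the edgeR test and 0 had an unadjusted p under 0.05.

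Genes typical of alveolar fibroblasts were lower at day 7, by the test in 11 of the 15 that passed the filter, with 0 higher. Of 20 genes of this list tested for a difference beyond the endothelial one, 0 passed in either direction. *Inmt* (chr6:55170626-55175043, minus strand) was at 848 CPM (743 to 964), 1049 CPM (953 to 1152), 2512 CPM (2070 to 3020), 3179 CPM (2958 to 3413) and 1884 CPM (1688 to 2096). The day 7 LPS libraries were lowest, and the interval of the day 21 β1 AT2-KO library lay below that of the β1 fl/fl one. By mouse *Inmt* was at 446, 1430 and 580 CPM and 1319, 1535 and 756 CPM at day 7, and at 3282, 4194 and 2282 CPM and 1009, 1746 and 1902 CPM at day 21. Of the day 21 mice 5 were above all 6 day 7 mice, and 1 β1 AT2-KO mouse lay among them. It fell by 1.39 ± 0.32 (edgeR adjusted p = 0.0076), passed in 17 of 18 settings and differed by -1.38 in untagged members. The difference beyond that of endothelial cells, where *Inmt* is near 0, was -0.02 (edgeR adjusted p = 1). At 1500 UMIs *Inmt* was found in 57.1%, 65.9%, 81.3%, 87.0% and 81.4% of members, and in a second draw in 0.8 to 3.0% of endothelial cells. Members with and without *Inmt* held a mean of 11.2 and 13.3 *Eln* UMIs in β1 fl/fl and 11.1 and 15.1 in β1 AT2-KO mice at day 7, so high elastin was not limited to the members lacking *Inmt*.

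*Limch1*, an actin-binding gene, was at 903, 1195, 1112, 1918 and 1750 CPM and fell by 1.17 ± 0.21 (edgeR adjusted p = 0.0014). *Itga8*, the α8 integrin chain that binds nephronectin, was at 866, 1283, 823, 1781 and 1895 CPM and fell by 1.17 ± 0.30 (edgeR adjusted p = 0.012). *Slc7a10*, an amino acid transporter gene, was at 254, 287, 333, 581 and 475 CPM and fell by 1.59 ± 0.36 (edgeR adjusted p = 0.0071). In the uninjured library *Limch1* and *Itga8* were near the day 7 LPS libraries, *Slc7a10* had an interval (187 to 550 CPM) that overlapped both days, and *Inmt* was near the day 21 libraries. *Col13a1* fell by 1.41 ± 0.25 (edgeR adjusted p = 0.0014) but differed by only -0.06 in untagged members. *Macf1*, a long cytoskeletal linker gene, was at 2773, 5078, 2357, 7189 and 7028 CPM and fell by 1.49 ± 0.25 (edgeR adjusted p = 0.00099). *Bmp3*, *Mamdc2*, *Nebl*, *Scn7a* and *Spon1* also fell, by 0.89 to 1.22. Among untagged members the 11 called genes of this list kept their sign, with a median log2 difference of -0.42 against -1.03 in tagged members. *Mfap4*, a microfibril gene of the same list, had the opposite sign, with 9218, 15000, 7359, 5715 and 4942 CPM, and did not pass (0.79 ± 0.35, edgeR adjusted p = 0.10), but was called higher without the 15 members (0.76 ± 0.29, edgeR adjusted p = 0.049). Over the library levels 15 of 20 genes of the list were lower at day 7, with a median log2 ratio of -0.53.

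Nuclear, ribosomal and mitochondrial RNA also differed between days. Ribosomal protein genes made up 19 of the 69 genes called higher at day 7, of 65 tested with 0 lower, and *mt-Nd1*, *mt-Nd2*, *mt-Nd4* and *mt-Atp8*, of 11 mitochondrial genes tested, were lower. *Malat1*, a long RNA that stays in the nucleus, was at 42267, 54117, 54424, 88113 and 93156 CPM in the fibroblasts and fell by 1.56 ± 0.24 (edgeR adjusted p = 0.00049). It was at 23008, 23195, 21445, 37488 and 52972 CPM in endothelial cells, and no fibroblast difference beyond theirs was detected (-0.20 ± 0.28, edgeR adjusted p = 0.88). *Son* and *Gm26917* fell too, by 1.55 and 2.72 (edgeR adjusted p = 0.0024 and 3.2e-05). The rule's threshold bore on the list as well. With 3 or more markers asked for, 38 genes passed in all in place of 146, and *Inmt*, *Limch1*, *Itga8* and *Slc7a10* each failed in 1 to 3 of 18 settings. The part of RNA composition and of the markers in these falls was not tested.

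Immediate early genes were a group with most tested members called, 13 of the 15 that passed the filter, all higher at day 7. *Fos* (chr12:85473890-85477273, plus strand), a subunit of the AP-1 transcription factor, was at 1450 CPM (1311 to 1599), 1606, 3379, 70.6 and 408 CPM. By mouse it was at 2342, 1569 and 1950 CPM and 6500, 2695 and 1538 CPM at day 7, and at 55.6, 0 and 0 CPM and 807, 277 and 178 CPM at day 21. All 6 day 7 mice were above all 6 day 21 mice, and the difference was 3.70 ± 0.58 (edgeR adjusted p = 0.00054). *Zfp36* (chr7:28376784-28380253, minus strand), which encodes a protein that breaks down cytokine messages, was at 1098, 1181, 2201, 133 and 123 CPM and rose by 4.24 ± 0.41 (edgeR adjusted p = 8.2e-06). *Jun*, the AP-1 partner of *Fos*, was at 2117, 1424, 2446, 220 and 403 CPM and rose by 3.14 ± 0.44 (edgeR adjusted p = 0.00039). *Atf3*, *Dusp1*, *Egr1*, *Ier2*, *Junb*, *Jund*, *Klf2*, *Klf6*, *Rhob* and *Socs3* rose as well.

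Neither endothelial cells nor adventitial fibroblasts of the same libraries had lower levels at day 21 of this size. *Fos* was at 938, 1251, 1427, 1342 and 1125 CPM in endothelial cells and at 3786, 5132, 5403, 4949 and 4555 CPM in adventitial fibroblasts. The fibroblast difference beyond the endothelial one was 4.33 ± 0.37 (edgeR adjusted p = 2.6e-27). Of the 27 immediate early genes tested for that difference 20 passed, all in the same direction, and the 13 called genes passed it in 15 of 15 settings. The list is one that dissociation and handling are known to switch on, and the high values were held by few members. The sum over the list was 20193 CPM in tagged and 8507 CPM in untagged members of the day 7 β1 fl/fl library, 21269 and 5532 CPM in the day 7 β1 AT2-KO library, 3753 and 4801 CPM in the day 21 β1 fl/fl library and 6185 and 5342 CPM in the day 21 β1 AT2-KO library. Tagged members at day 7 thus held more immediate early RNA than untagged members of the same library, and at day 21 the gap was small and of either sign. Among untagged members 11 of the 13 called genes kept their sign, with a median log2 difference of 1.17 against 2.82 in tagged members. Over all members, tagged or not, the sum over the list was 14880, 14042, 25789, 4458 and 5764 CPM. It was thus highest in the uninjured day 7 library, which had no LPS, and lowest in the day 21 libraries. In the uninjured library 3 of the 16 members deep enough held 85.8% of the immediate early UMIs, so its sum rests on few cells. The parts of handling and of injury in these levels were not tested.

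The DNA before the start of 3 genes that carry the day contrast is shown, from RefSeq on GRCm38.p6, as the 250 bases before the RefSeq start on the gene's own strand. The gene coordinates above are GENCODE's, whose longest transcripts of *Zfp36* and *Inmt* start further upstream, so these windows lie within or overlap the GENCODE gene. Capitals mark a TATA box (TATAAA) or a GC box (GGGCGG, here on the reverse strand). *Fos* is at chr12:85473640-85473889, *Zfp36* at chr7:28379229-28379478 and *Inmt* at chr6:55174991-55175240.
Fos: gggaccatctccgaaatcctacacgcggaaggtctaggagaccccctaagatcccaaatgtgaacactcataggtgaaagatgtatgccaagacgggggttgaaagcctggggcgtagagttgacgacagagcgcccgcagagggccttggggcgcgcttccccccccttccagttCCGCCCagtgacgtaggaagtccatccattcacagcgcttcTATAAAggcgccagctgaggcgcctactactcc
Zfp36: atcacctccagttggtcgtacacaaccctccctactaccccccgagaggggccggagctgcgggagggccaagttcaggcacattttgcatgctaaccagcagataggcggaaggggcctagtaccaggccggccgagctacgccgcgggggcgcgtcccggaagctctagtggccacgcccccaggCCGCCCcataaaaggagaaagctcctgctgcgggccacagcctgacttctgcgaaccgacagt
Inmt: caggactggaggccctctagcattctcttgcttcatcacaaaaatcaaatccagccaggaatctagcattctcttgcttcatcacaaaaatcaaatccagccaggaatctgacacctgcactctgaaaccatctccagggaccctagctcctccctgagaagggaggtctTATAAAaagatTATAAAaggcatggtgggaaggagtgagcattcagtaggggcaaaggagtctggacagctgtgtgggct
The motifs were searched on both strands, and the exact letters of the cAMP response element (TGACGTCA) and the AP-1 site (TGACTCA) were in none of the 3 windows. Variant forms of these sites were not searched, so the windows cannot be said to lack them. The *Fos* window holds TGACGT, a part of the cAMP response element. Of 32851 windows of this length 12.4% held a TATA box, 32.7% a GC box, 4.46% an AP-1 site and 1.55% a cAMP response element, so the matches shown are common ones.

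**Figure D3:**
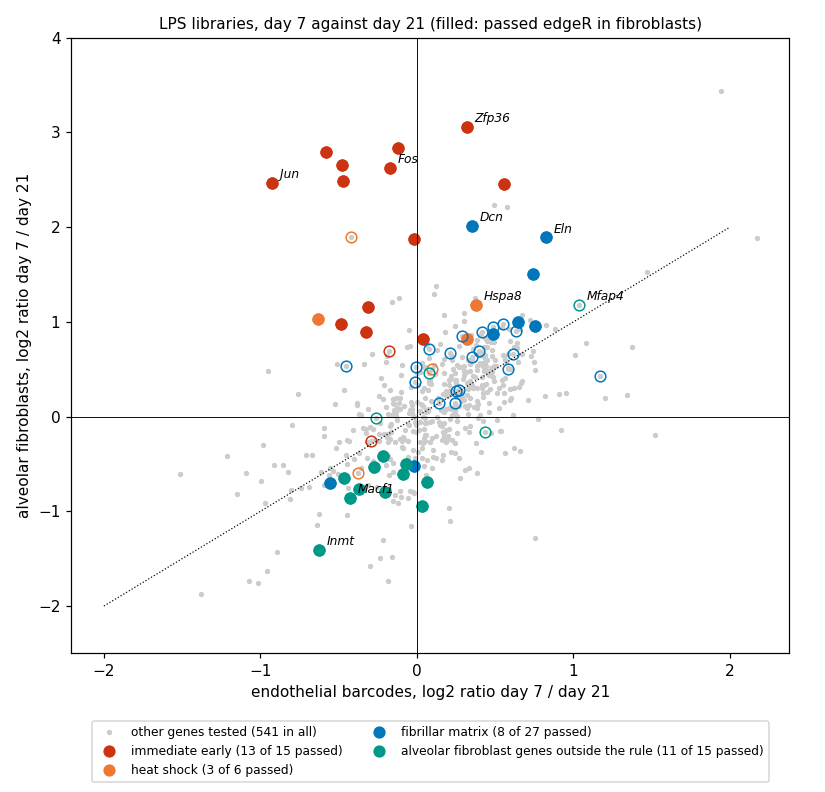
Difference between day 7 and day 21 after LPS in alveolar fibroblasts (vertical) and endothelial cells (horizontal), as log2 ratios of library levels with 10 CPM added, for 541 genes. Filled points passed the edgeR test over mice and the dotted line marks equal differences; immediate early genes (13 of 15 called) lie high above the line, and called alveolar fibroblast genes (11 of 15) lie below 0.

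Further groups moved with the day. *Mt1*, the metal-binding metallothionein gene, was at 642, 1097, 623, 41.5 and 101 CPM and rose by 3.82 ± 0.70 (edgeR adjusted p = 0.0016), and 1 member of the day 7 β1 AT2-KO library gave 191 of its 459 UMIs. The MHC class I genes *H2-D1* and *H2-K1*, which present peptides to T cells, were at 2164, 2399, 1534, 946 and 1180 CPM and at 1294, 920, 1045, 419 and 498 CPM. *H2-D1* rose by 1.11 ± 0.25 (edgeR adjusted p = 0.0071), more than in endothelial cells (1.30 ± 0.31, edgeR adjusted p = 0.0048). They were the 2 of the 7 interferon response genes past the filter that passed, and without the 15 members these were *B2m* and *H2-D1*. *Vcam1*, an adhesion molecule for leukocytes, was at 464, 509, 556, 847 and 660 CPM and fell by 1.16 ± 0.27 (edgeR adjusted p = 0.0071), beyond the endothelial difference (-1.65 ± 0.41, edgeR adjusted p = 0.0081). The heat shock genes *Hspa8*, *Hspb1* and *Dnaja1* rose, 3 of 6 past the filter. In untagged members the difference was 0.63 for *Hspa8*, 0.25 for *Dnaja1* and -0.21 for *Hspb1*. *Igfbp4*, an IGF-binding protein gene that was also listed as adventitial, was at 449, 640, 511, 70.6 and 145 CPM and rose by 2.78 ± 0.42 (edgeR adjusted p = 0.00045), and *Crispld2*, which encodes a secreted LPS-binding protein, was at 304, 210, 622, 818 and 760 CPM and fell by 2.00 (edgeR adjusted p = 0.00067). Complement genes did not pass (0 of 7 past the filter by edgeR, 3 at an unadjusted p under 0.05), though *C7* was called lower without the 15 members (-0.70 ± 0.26, edgeR adjusted p = 0.041) and *Clu* rose beyond the endothelial difference (3.21 ± 0.52, edgeR adjusted p = 3.3e-07). *Serping1*, the C1 inhibitor gene, was at 4161, 4935, 5180, 4288 and 4735 CPM. Without the 15 members 86 of 550 genes (15.6%) were higher and 87 (15.8%) lower. Of the list genes, *Mfap4*, *Mmp2*, *Mmp14*, *Acta2*, *Ltbp2*, *Cebpd*, *Btg2*, *B2m* and *Hspa1a* were then also called higher and *Apoe*, *C7*, *Slit3*, *Igfbp3* and the epithelial or immune markers *Sftpc*, *Sftpa1* and *Lyz2* lower, while *H2-K1*, *Dnaja1*, *Itgb1* and *Tsc22d3* no longer passed.

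Against the uninjured β1 AT2-KO library, the LPS-treated β1 AT2-KO fibroblasts of day 7 had more matrix RNA. With 1 library a side and 18 uninjured members this is a comparison of libraries with no test. Genes are counted where the level differed by 2-fold or more with counting intervals apart, which held for 72 of 4547 genes (1.58%) higher and 104 (2.29%) lower after LPS, and the median log2 ratio of all genes was -0.17. Of 33 fibrillar matrix genes with enough counts 10 were higher and 0 lower (*Col3a1*, *Col5a2*, *Fn1*, *Col6a3*, *Col5a1*, *Fbn1*, *Tnc*, *Eln*, *Col1a1* and *Vcan*), with a median log2 ratio of 0.70 over the list, against 0.74 in endothelial cells, where levels of these genes are low. *Fn1* showed a log2 ratio of 2.83, from 645 CPM (432 to 926) to 4631 CPM (4427 to 4842). Basement membrane genes *Lama2*, *Col4a1* and *Col4a2* were also higher, at a median of 0.84 over 12 genes against 0.67 in endothelial cells, as were *Cyr61*, *Sfrp1*, *Tpm1* and *Ltbp2* of 11 fibrotic fibroblast genes, at 1.27 against 0.31 in endothelial cells. *Ctsk*, the gene of the collagen-degrading protease cathepsin K, had 102 UMIs in 57 members after LPS and 0 UMIs in the 18 uninjured members.

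*Inmt* and *Wnt2*, a WNT ligand of the alveolar niche, were lower after LPS, *Wnt2* at 90.8 against 267 CPM, whereas *Macf1* and *Mfap4* were higher. Of 20 alveolar fibroblast genes these 4 were 2-fold apart, 12 were higher by any amount, and the list median was 0.18. Immediate early genes had a median of -0.86 over 25 genes, 6 of them lower, which in the uninjured library rested on the few members named above. The chemokine genes *Cxcl10* and *Cxcl1* were lower for the same reason, since 1 uninjured member gave 35 of 35 *Cxcl10* UMIs and 1 gave 14 of 15 *Cxcl1* UMIs. *Ifitm3*, *Irf9* and *Irf1* of 23 interferon response genes were lower, at a list median of -0.74 against -0.12 in endothelial cells. Epithelial RNA was higher after LPS in the fibroblasts (median 3.13 over 6 genes) as in endothelial cells (2.52).

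Between genotypes at day 7, 2 of 886 genes passed the edgeR test, 1 higher (0.113%) and 1 lower (0.113%), with 84 at an unadjusted p under 0.05. The lower gene was *Xist*, which marks the sex of the mice. The higher gene was *Tuba1a* (chr15:98949837-98953703, minus strand), an α-tubulin gene, at 101 CPM (67.4 to 147), 796 CPM (713 to 886), 800 CPM (561 to 1108), 133 CPM (90.8 to 188) and 140 CPM (90.4 to 206). By mouse it was at 37.2, 244 and 31.6 CPM in β1 fl/fl and 1030, 941 and 782 CPM in β1 AT2-KO mice, a difference of 3.41 ± 0.55 (edgeR adjusted p = 0.027) that passed in 5 of 12 settings. Endothelial cells had it at 129, 955, 1160, 252 and 342 CPM and adventitial fibroblasts at 150, 1126, 1210, 212 and 289 CPM. It was thus high in both β1 AT2-KO libraries of day 7 in 3 cell types and was not high in the β1 AT2-KO library of day 21. No fibroblast difference beyond the endothelial one was detected for it (edgeR adjusted p = 1). That test of fibroblasts against endothelial cells gave 1 of 11753 genes (0.00851%) higher and 5 (0.0425%) lower. *Itgb1* (chr8:128685654-128733200, plus strand), deleted in AT2 cells, was at 928, 1004, 734, 1079 and 1202 CPM in the fibroblasts and did not pass between genotypes at either day (edgeR adjusted p = 0.94 at day 7 and 0.92 at day 21). Between days it was lower at day 7, by 0.60 ± 0.19 on the log2 scale (edgeR adjusted p = 0.029), a call lost in 14 of 18 alternative settings, and the difference was -0.06 in untagged members.

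By library levels, 57 of 4329 genes (1.32%) were 2-fold or more higher and 93 (2.15%) lower in day 7 β1 AT2-KO fibroblasts, and none of the list genes below passed the edgeR test between genotypes. Of the 20 alveolar fibroblast genes 0 were 2-fold apart, though 17 were higher. Their median log2 ratio was 0.23, against 0.15 in endothelial cells and -0.08 over all genes. They summed to 20933.9 CPM in β1 fl/fl and 30798.5 CPM in β1 AT2-KO fibroblasts, and by mouse to 11079 to 19037 and 19950 to 29693 CPM. Of 34 fibrillar matrix genes 2 were 2-fold apart, both lower (*Lum* and *Mmp3*), and 22 were higher, at a median of 0.17. Past the filter, 7 of 17 and 2 of 28 genes of these lists had an unadjusted edgeR p under 0.05, against 84 of 886 genes tested. Circadian genes were higher, *Per3*, *Dbp*, *Nr1d1* and *Tef* of 8, at a median log2 ratio of 0.87 in fibroblasts and 1.00 in endothelial cells. *Dbp*, an output gene of the clock, was at 32.6 CPM in β1 fl/fl and 90.8 CPM in β1 AT2-KO fibroblasts. Heat shock genes were lower in 12 of 13 cases at a median of -0.74 against -0.12 in endothelial cells, with *Hspa1a* at 507 and 170 CPM. The lipid genes *Lrat*, *Lpl*, *Acly* and *Scd1* of 11 and the p53 genes *Trp53inp1*, *Ccng1* and *Cdkn1a* of 12 were lower too. *Nr4a1*, an immediate early nuclear receptor gene, was at 65.2 and 363 CPM (edgeR adjusted p = 0.19). *Cyr61*, a matrix-associated signalling gene, was at 431 and 1154 CPM (edgeR adjusted p = 0.35). *Postn* was at 174 and 50.2 CPM, with 36 of the 48 β1 fl/fl UMIs in 1 member, and its difference from the endothelial one passed (-3.78 ± 0.76, edgeR adjusted p = 0.0019). *Ptgs2*, the COX-2 gene, had 25 UMIs in 7 members against 2 UMIs in 2.

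At day 21, 8 of 425 genes (1.88%) were higher in β1 AT2-KO fibroblasts and 0 lower by edgeR, with 36 at an unadjusted p under 0.05 and 7 calls by DESeq2. They were the surfactant genes *Sftpc*, *Sftpb* and *Sftpa1*, the AT2 chemokine gene *Cxcl15*, and *Cd74*, *Lyz2*, *Npc2* and *Lars2*, of which the first 6 are known from AT2 cells. *Sftpc* rose by 3.66 ± 0.45 (edgeR adjusted p = 6.1e-06), and endothelial cells showed the same gene at 15566 against 2964 CPM. Its difference beyond the endothelial one was 1.28 ± 0.44 and did not pass (edgeR adjusted p = 0.63), whereas *Sftpb* (3.66) and *Cd74* (3.73) passed that test. All 9 epithelial markers with enough counts were 2-fold or more higher, beside 75 of 4490 genes (1.67%), with a median log2 ratio of 2.94 in fibroblasts and 2.14 in endothelial cells. Without the 3 day 21 β1 AT2-KO and 1 day 21 β1 fl/fl members past the limits for another type's markers, 2 of 474 genes (0.422%) passed. These were *Sftpc* and *Cxcl15*. *Lars2* had 811 of its 955 UMIs in 1 member.

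Of the alveolar fibroblast genes 0 of 15 and of the fibrillar matrix genes 0 of 21 past the filter passed edgeR between genotypes at day 21, with 2 and 3 at an unadjusted p under 0.05. The alveolar fibroblast list had a median log2 ratio of -0.26 with 1 of 20 genes, *Slc38a5*, 2-fold lower, and the fibrillar matrix list 0.07 with 1 of 32, *Mmp3*, 2-fold lower, against 40 of 4490 genes (0.891%) lower overall. *Inmt* was at 3179 and 1884 CPM and *Rarres2*, the gene of the chemokine-like chemerin, at 714 and 464 CPM (-1.37 ± 0.39, edgeR adjusted p = 0.070). Immediate early genes were higher in β1 AT2-KO fibroblasts for 20 of 24 genes, at a median of 0.75 against -0.51 in endothelial cells, 4 of them 2-fold (*Btg2*, *Fos*, *Ier3* and *Egr1*). Of the 4 past the filter 0 passed edgeR in the fibroblasts and 0 had an unadjusted p under 0.05. *Fos*, *Junb* and *Ier3* passed the test of the difference beyond the endothelial one, among 12 of 7089 genes (0.169%) that were higher and 0 that were lower, with 341 at an unadjusted p under 0.05, and without members holding other markers 1 of the 12 was left.

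**Figure D4:**
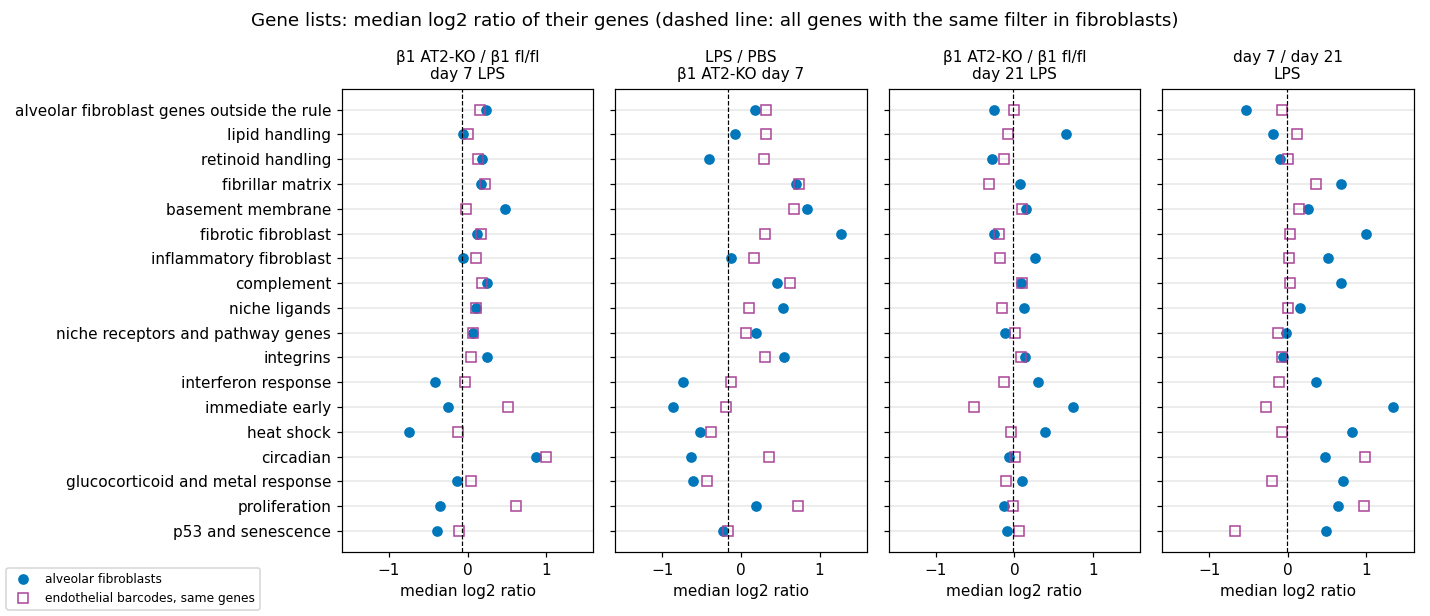
Median log2 ratio of 18 gene lists in 4 comparisons, for alveolar fibroblasts (filled circles) and endothelial cells (open squares), with the median of all genes as a dashed line. The day contrast has the widest gaps between the cell types, with immediate early genes at 1.34 in fibroblasts and -0.28 in endothelial cells, and the genotype contrast at day 21 has matrix near 0.

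Signals to the epithelium were detected in every library at low counts. *Fgf10*, the ligand that AT2 progenitors answer to, was at 65.2, 71.7, 88.9, 58.1 and 67.1 CPM. *Fgf7*, a related ligand, was at 141, 162, 245, 216 and 168 CPM, and *Wnt2* at 94.2, 90.8, 267, 249 and 179 CPM. *Hgf*, the hepatocyte growth factor gene, was at 79.7, 189, 88.9, 295 and 212 CPM. *Mdk*, which encodes the growth factor midkine, was higher at day 7, with 254, 225, 22.2, 41.5 and 101 CPM. Of 42 niche ligands 25 had enough counts in the day contrast and 3 were tested, of which *Bmp3* fell. Among 27 niche receptors and pathway genes with enough counts *Id3*, a target of BMP signalling, rose by 1.30 ± 0.39 (edgeR adjusted p = 0.025), the only 1 of 3 tested, and its sign turned in untagged members (-0.34).

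No difference in the retinoid genes was detectable between days at this depth. *Aldh1a1*, an enzyme that makes retinoic acid, was at 344, 392, 645, 490 and 397 CPM, and *Adh1* at 551, 633, 511, 465 and 391 CPM. Of the 4 retinoid genes past the filter 0 passed edgeR between days and 0 had an unadjusted p under 0.05. *C7*, a complement gene, was at 1860, 3233, 2557, 2470 and 2745 CPM and *Gsn*, the gelsolin gene shared with adventitial fibroblasts, at 13532, 13339, 22343, 24073 and 20899 CPM, falling at day 7 by 0.87 ± 0.25 (edgeR adjusted p = 0.023). The 23 proliferation genes with a UMI summed to 576, 390, 400, 237 and 218 CPM against 1759, 2704, 1073, 835 and 806 CPM in endothelial cells. *Mki67*, a marker of dividing cells, was at 25.4, 2.39, 0, 0 and 0 CPM against 50.3 and 89.6 CPM in day 7 endothelial cells.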

How the data were processed

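Single-cell suspensions from mouse lung were profiled with droplet 5' libraries in 5 samples, 1 per condition, with mice pooled under hashtag antibodies. The deposited files hold raw UMI counts per gene and barcode, which the authors made with Cell Ranger 3.1 on mm10; Seurat 4.1.0 is named in the submitters' processing notes for later steps. The removal of free RNA (SoupX), the quality filter and the doublet removal that the study describes are not in these counts, and no doublet caller was run here: the rule itself drops barcodes with endothelial, epithelial or immune marker counts.

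Barcodes with at least 700 genes and 0.1 to 15% mitochondrial counts were kept, and members were picked by the rule given above. The members and the gene lists were chosen with earlier results of these data known. *Gm42418* was left out of totals. A mouse was assigned where its hashtag was at least 2 times background and 2 times the next tag, and mice with at least 5 members entered the fits. UMIs summed per mouse were tested with edgeR 4.0.16 (quasi-likelihood, R 4.3.3), with DESeq2 1.42.0 as an alternative. The edgeR fit between genotypes was also run on simulated counts with a common dispersion. It called 38 of 99 genes changed 2-fold at day 7 and 51 of 100 at day 21. Of genes changed 4-fold it called 96 of 97 and 99 of 100, with 7 false calls at each day. A gene that did not pass can therefore hold a 2-fold change. The labels do not say which mice were separate litters, and p-values measure the spread between these mice. Library comparisons used log2 ratios with 10 CPM added for genes at 50 CPM or more. Annotation was GENCODE on GRCm38, which matched 14072 of 14083 genes.

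Genes were named by a fixed rule: the markers, *Itgb1*, up to 10 largest rises and falls per comparison with intervals and mice apart, and, per list, the 3 highest and those called. LPS against PBS had no mouse criterion. List members past 2-fold, a few further levels and the comparison of days were added after the values were seen.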

Additional observations from a re-analysis of the deposited data

Results flagged for a closer look

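Genes are given here where the genotype difference of the alveolar fibroblasts differed from that of endothelial cells of the same mice, by the interaction term of the edgeR fit (log2, adjusted p under 0.05). Where all mice of a group are at 0 the fitted value depends on the prior count and is no bound.

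At day 7 the difference was 1.81 for *Lars2*, -3.78 for *Postn*, -3.05 for *Sftpb*, -5.24 for *Slc34a2*, -4.12 for *Slpi* and -4.92 for *Spp1*. In the β1 fl/fl library 1 member gave 81 of 85 *Sftpb* UMIs, 50 of 52 *Slc34a2* UMIs, 123 of 125 *Slpi* UMIs and 36 of 48 *Postn* UMIs, each gene counted on its own. *Spp1*, the osteopontin gene, was in 9 members, which gave 307 UMIs, 124 of them from 1.

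At day 21 the difference was 3.73 for *Cd74*, 4.79 for *Ctsc*, 4.83 for *H2-Aa*, 8.97 for *H2-Ab1*, 3.66 for *Sftpb* and 9.27 for *Slc34a2*, genes that AT2 or immune cells express. It was 4.25 for *Fos*, 4.10 for *Junb*, 9.23 for *Ier3*, 4.78 for *Hspa1a* and 8.96 for *Hspa1b*, immediate early and heat shock genes. It was 3.42 for *Igfbp3*, which was lower in β1 AT2-KO fibroblasts (805 against 1490 CPM) and lower still in endothelial cells (1.98 against 38.4 CPM). The part of single members and of other cell types' RNA in the fitted sizes was not tested.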

How the results depend on the processing

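Calls over mice rested on few tagged members. The genotype count at day 7 (2 genes) was 29 with no filter on low counts and 0 by edgeR with at least 3 markers (36 at an unadjusted p under 0.05). At day 21 (8 genes) it was 30 with no filter, 3 with at least 3 markers and 2 without members holding other markers, an alternative chosen after seeing the data, under which the 12 genes beyond the endothelial difference became 1. The day contrast (146 genes) gave 38 with at least 3 markers and 79 in members with 1000 genes or more. Share differences in percentage points were 6.99 over stromal barcodes at day 7 (1.18 over all), 12.0 over stromal barcodes, 1.40 with at least 3 markers and 2.34 after thinning for LPS against PBS (1.91), and 6.06 over stromal barcodes at day 21, which reversed the -2.20 over all. Genes 2-fold apart numbered 89 with at least 3 markers at day 7 (150), and 66 with at least 3 markers and 69 with the endothelial level subtracted at day 21 (115). The cause was not tested.

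Leaving out 1 mouse moved these counts to 1 to 4 (day 7), 4 to 15 (day 21) and 84 to 158 (days), and those beyond the endothelial difference to 1 to 19 (day 7, from 6), 2 to 10 (day 21) and 71 to 141 (days, from 107). The day 7 count was 1 without β1 fl/fl mouse 1 or any β1 AT2-KO mouse and 4 without β1 fl/fl mouse 2; beyond endothelial it was 19 without β1 fl/fl mouse 3 and 1 without β1 AT2-KO mouse 2. At day 21 it was 4 without β1 fl/fl mouse 1, 13 without β1 fl/fl mouse 3 and 15 without β1 AT2-KO mouse 2; beyond endothelial it was 3, 6, 2 and 7 without β1 fl/fl mice 1 and 2 and β1 AT2-KO mice 1 and 3. The day count was 88 without day 7 β1 fl/fl mouse 3, and 84 and 91 without day 21 β1 fl/fl mice 1 and 3; beyond endothelial it was 71 without day 7 β1 fl/fl mouse 3. Share differences ranged over 0.846 to 1.80, 1.82 to 2.53 and -3.25 to -1.84 points.

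Among named genes, *Postn* (0.66) and *Slpi* (0.26) turned at day 7 with at least 3 markers, and *Slc34a2* (0.86), *Sftpb* (2.01) and *Slpi* (0.33) without members holding other markers. Leaving out 1 mouse gave -1.70 to 0.48 for *Postn*, -3.21 to 0.81 for *Slc34a2*, -2.45 to 1.73 for *Sftpb* and -4.41 to 1.66 for *Slpi*. Against PBS, *Cyp2e1* (0.39) and *Cxcl10* (0.70) turned with at least 3 markers, *Cxcl10* ranging from -5.30 to 3.37 over mice. At day 21 *Lars2* turned with at least 3 markers (-0.33) and without other markers (-0.40), ranging from -0.47 to 2.53 over mice. No paired analysis was possible because mouse numbers name hashtags within a library and the labels give 1 library per group. Fits of LPS against PBS and with stricter hashtags were not run, for too few tagged members. Depth limits the uninjured library most.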
